A study of Mus musculus with 6 samples.

Results

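Amino acid transporter genes of the proximal colon were described in wild-type mice and in mice with 1 gene-trapped copy of Mthfd1. The members were every probe set whose single gene symbol belongs to the solute carrier families Slc1, Slc3, Slc6, Slc7, Slc36, Slc38 or Slc43 and ends in a plain number. This gave 65 probe sets for 41 genes, of 22626 probe sets and 12393 named genes in all. Slc7 and Slc6 gave 13 genes each, Slc1 and Slc38 gave 6 each, Slc3 gave 2, Slc43 gave 1 and Slc36 gave 0. The groups were 3 wild-type (wt) arrays and 3 heterozygous (Mthfd1/+) arrays, each of total RNA from the proximal part of 1 mouse colon. All 6 mice were 8 weeks old and had eaten the AIN-93G control diet for 5 weeks from weaning. The heterozygotes came from a gene-trap line of BayGenomics. The colon was taken as whole tissue, so fewer cells of a type and less RNA per cell cannot be told apart in any value that follows. The sources used here do not give strain, sex or the trapped part of Mthfd1.

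Amino acids cross the intestinal epithelium through carriers of differing substrate range at its luminal and its blood-facing membrane. At the luminal brush border, carriers driven by sodium, chloride or proton gradients and the exchanger made of the Slc7a9 light chain and the Slc3a1 heavy chain take up amino acids. At the basolateral side, light chains such as Slc7a7 and Slc7a8 pair with the heavy chain Slc3a2 and release amino acids to the blood. Other members of the same families clear neurotransmitters from synapses, import the osmolyte taurine or creatine, or supply growing cells with glutamine, leucine and cystine. For this account the genes were set apart as 10 epithelial carriers, 13 neuronal carriers, which clear transmitters or are known mainly from nervous tissue, and 18 general carriers. A class name describes a known role. The cells that made each signal in this whole tissue were not identified.

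The check of the trapped gene came first. At its brightest probe set Mthfd1 read 950, 839 and 881 in wild-type and 453, 510 and 549 in heterozygous colon, with no overlap (log2 fold change -0.80, SE 0.12, limma adjusted p = 0.121). The arrays were on a common scale, with a trimmed mean signal of 500 each and medians from 157 to 168, and correlated at r = 0.971 to 0.982 across probe sets. Of 11 colonocyte genes on the array, 10 passed the filter on dim genes described below. Car1, a carbonic anhydrase, was bright in every array, from 15443 to 19084. Slc26a3, the chloride and bicarbonate exchanger of the colon, ran from 3254 to 4885. Others on that list varied more between arrays, Car4 from 3206 to 6416 and Aqp8 from 668 to 3454. Genes of small intestinal enterocytes varied between arrays of both genotypes, some of them widely. Their summed signal over 16 genes was highest in wild-type replicate 2, at 43614, followed by heterozygous replicate 2 at 34457, wild-type replicate 1 at 23712, heterozygous replicate 3 at 18402, heterozygous replicate 1 at 16151 and wild-type replicate 3 at 13615. Fabp6, the ileal bile acid binding protein, ran from 93.5 to 5662 in that same order of arrays. Fabp2, the brightest of the 16, ran only from 7714 to 13529, and the dim Lct was lowest in wild-type replicate 2.

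At their brightest probe sets the 41 genes ran from percentile 1.54 to percentile 93.6 of all probe sets by mean signal. The brightest probe set stood for its gene, and a gene was tested where the mean log2 level of that probe set reached the 40th percentile of all probe sets, a signal of about 93.3. Of the 41 genes, 21 passed this filter, and at the level of probe sets 31 of 65 passed. The 10 brightest genes were, in falling order, Slc38a2, Slc6a14, Slc6a6, Slc38a10, Slc6a8, Slc3a1, Slc3a2, Slc1a5, Slc7a9 and Slc7a7, with mean signals from 2358 down to 386. Signal depends on each probe set's sequence as well as on the amount of transcript, so this is an order of signals and not of transcript amounts. The ranges of Slc38a2 and Slc6a14 over the arrays overlapped almost wholly, whereas every array of Slc6a6 lay below every array of Slc38a2 and of Slc6a14. Slc6a8, Slc3a1, Slc3a2 and Slc1a5, with means between 796 and 853, could not be ordered beyond their spread. Of the epithelial carriers 9 of 10 passed the filter, against 4 of 13 neuronal and 8 of 18 general carriers. These counts depend on how the classes were drawn. Slc7a5, under the filter, was classed as general, while Slc7a6, a basolateral chain like it, passed and was classed as epithelial.

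**Figure D1:**
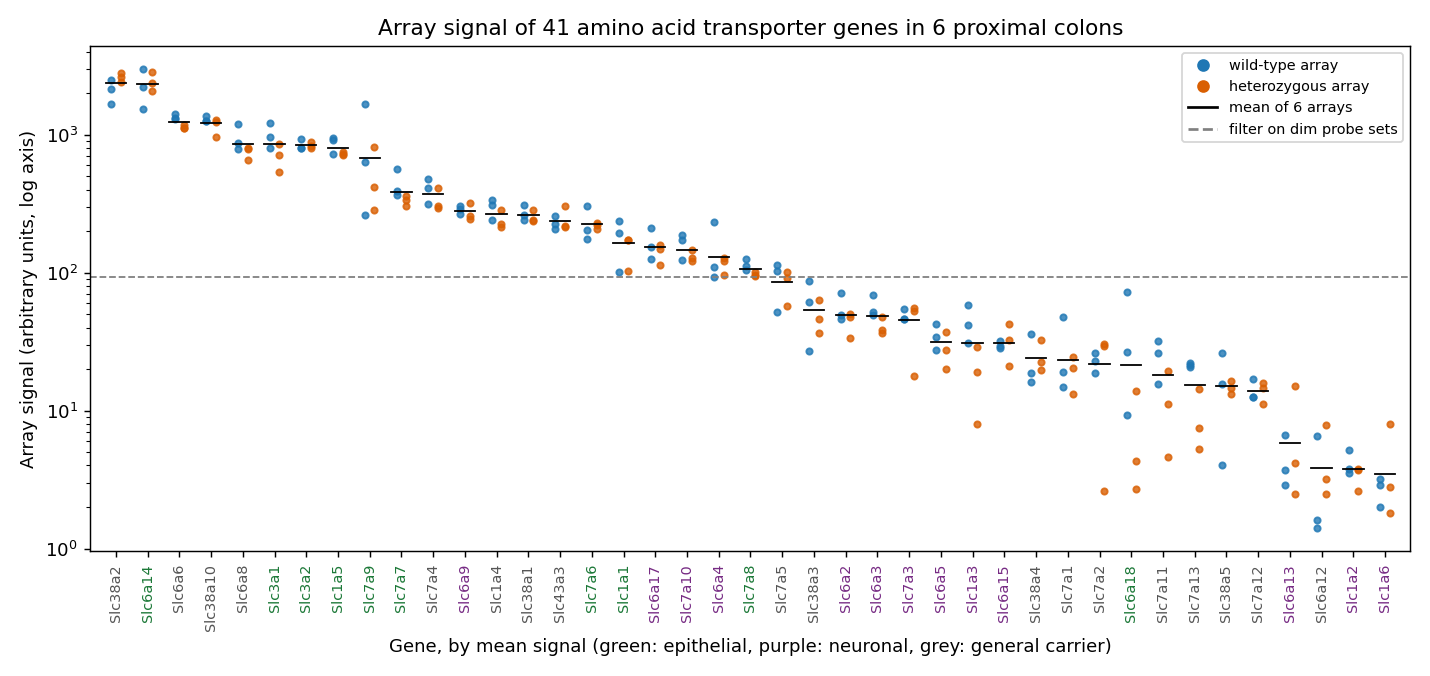
Array signal (arbitrary units, log axis) of the 41 genes at their brightest probe set, ordered by mean, with 3 wild-type and 3 heterozygous arrays as points, the mean of the 6 as a bar and the filter on dim probe sets as a dashed line. Slc38a2 and Slc6a14 stand highest, and 9 of the 13 neuronal carriers (purple names) lie under the filter.

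Slc6a14, a sodium- and chloride-coupled carrier of neutral and cationic amino acids, was the brightest of the 5 members classed as brush border carriers. Slc6a19 and the Slc36 family were not among the members, so this ranking does not cover them. Its brighter probe set read 2213, 1532 and 3002 in wild-type and 2842, 2077 and 2389 in heterozygous colon. The lowest and the highest of the 6 were both wild-type arrays, and the groups overlapped (2249 ± 735 and 2436 ± 384, SD, n = 3 each; log2 fold change 0.16, SE 0.22, limma adjusted p = 0.963). Without wild-type replicate 2 the log2 fold change was -0.09. The other probe set of Slc6a14 read 861, 1165 and 1126 in wild-type and 1387, 1250 and 729 in heterozygous colon (log2 fold change 0.05). The probe sets did not share their extremes: heterozygous replicate 3 was lowest at the second and near the middle at the first.

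Slc7a9, the light chain of the brush border exchanger for cystine and basic amino acids, varied most between arrays of all 21 tested genes. It read 636, 1663 and 263 in wild-type and 287, 814 and 416 in heterozygous colon. The highest and the lowest array were both wild-type, a 6.01-fold difference in signal + 16, and the group means of 854 ± 725 and 506 ± 275 (SD, n = 3 each) differed by less than the spread within groups (log2 fold change -0.50, SE 0.58, limma adjusted p = 0.951). Leaving out wild-type replicate 2 gave a log2 fold change of 0.16, and leaving out wild-type replicate 3 gave -1.13. Leaving out heterozygous replicate 1 or 2 gave -0.17 or -0.90. Its partner Slc3a1, the heavy chain needed to bring the exchanger to the membrane, read 971, 1219 and 804 in wild-type and 711, 862 and 541 in heterozygous colon. Slc3a1 was also highest in wild-type replicate 2, and its lowest arrays were heterozygous replicates 3 and 1, while heterozygous replicate 2 lay above wild-type replicate 3. Its means were 998 ± 209 and 705 ± 160 (SD, n = 3 each; log2 fold change -0.50, SE 0.20), the smallest p among the tested carriers (limma unadjusted p = 0.0336, adjusted p = 0.817; log2 fold change -0.32 without heterozygous replicate 3).

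The upstream sequences of this pair are shown because both genes were highest in the array with the most small intestinal signal, and the upstream sequence of Slc7a11 because its motif marks amino acid stress targets. That array was highest for 9 of the 21 tested carriers, so the trait is not particular to the pair. Slc3a1 did not order the other arrays as the small intestinal signal did. Each is the 250 bases before a RefSeq transcript start on GRCm38.p6 (for Slc7a9 the first of 2 listed starts), with motif matches in capitals. The windows are chr7:35448842-35449091 on the plus strand for Slc7a9, chr17:85028097-85028346 on the plus strand for Slc3a1 and chr3:50443614-50443863 on the minus strand for Slc7a11.
Slc7a9: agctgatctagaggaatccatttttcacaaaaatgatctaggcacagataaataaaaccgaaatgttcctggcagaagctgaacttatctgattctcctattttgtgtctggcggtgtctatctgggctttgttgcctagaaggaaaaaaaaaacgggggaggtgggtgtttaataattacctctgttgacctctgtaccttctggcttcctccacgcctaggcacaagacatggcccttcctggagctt
Slc3a1: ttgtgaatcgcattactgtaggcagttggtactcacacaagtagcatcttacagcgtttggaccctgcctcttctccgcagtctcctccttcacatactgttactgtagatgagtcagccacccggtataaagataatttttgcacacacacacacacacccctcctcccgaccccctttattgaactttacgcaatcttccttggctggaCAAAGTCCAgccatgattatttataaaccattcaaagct
Slc7a11: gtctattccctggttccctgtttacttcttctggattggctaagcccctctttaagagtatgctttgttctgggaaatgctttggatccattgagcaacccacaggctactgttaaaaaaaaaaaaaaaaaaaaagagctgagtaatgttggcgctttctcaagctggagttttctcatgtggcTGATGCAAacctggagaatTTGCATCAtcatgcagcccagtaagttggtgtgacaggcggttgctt

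Both strands were searched for CAAAGTCCA, a motif of the enterocyte factor HNF4, for GTTAAT, a half-site of HNF1, and for TGATGNAA, the composite of C/EBP and ATF sites through which amino acid shortage acts on genes. Of the 41 genes, 26 had windows in the promoter table, 45 windows in all. CAAAGTCCA was found in 1 of these windows, that of Slc3a1, from 39 to 31 bases before the start, against 0.384% of all 32851 windows. TGATGNAA was found in 3 windows, 1 of Slc7a11 with a match on each strand and 2 of Slc7a7, against 3.45% of all windows. GTTAAT was found in 1 window each of Slc7a7 and Slc6a13, against 6.43% of all windows. The Slc7a9 window printed above held none of these letters. A match describes the letters and not a bound site.

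The remaining brush border members were dimmer. Slc1a1, the epithelial and neuronal carrier of glutamate and aspartate, read 101, 238 and 194 in wild-type and 173, 172 and 104 in heterozygous colon. Its high array was again wild-type replicate 2, its low arrays were 1 of each genotype, and the groups overlapped (log2 fold change -0.19, SE 0.30, limma adjusted p = 0.971; 0.05 without wild-type replicate 2 and 0.03 without heterozygous replicate 3). A second tested probe set of Slc1a1 ran from 80.4, in heterozygous replicate 3, to 219, in wild-type replicate 2, with a log2 fold change of -0.29. Slc6a18, a neutral amino acid carrier known from kidney, had a mean of 21.6 and was not tested.

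Other carriers and partner proteins of the brush border, which the symbol rule left out, were read alongside. Slc6a20a, a proline carrier, read 284, 709 and 200 in wild-type and 296, 368 and 138 in heterozygous colon. The peptide carrier Slc15a1 read 168, 470 and 127 in wild-type and 58.7, 203 and 52.5 in heterozygous colon (log2 fold change -1.17, SE 0.52, limma adjusted p = 0.874). Both had wild-type replicate 2 highest and heterozygous replicate 2 next. The peptide carriers Slc15a2 and Slc15a4, also left out by the rule, were instead highest in heterozygous replicate 2 and next in wild-type replicate 3. Slc15a2 read 266, 629 and 906 in wild-type and 517, 1037 and 574 in heterozygous colon (log2 fold change 0.33, SE 0.41, limma adjusted p = 0.953). Cltrn, a partner that brings brush border carriers to the membrane, ran from 1.20 to 18.8 and lay under the filter.

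The array order of the absorptive carriers was set beside that of the small intestinal genes. Slc7a9 ordered the 6 arrays exactly as the summed small intestinal signal did, as did 0.340% of all 8240 tested genes, and it was the only tested carrier of the 41 to do so. Slc38a3, a glutamine carrier under the filter with a mean of 53.6, had the same order. Slc7a9 was also the only tested carrier with wild-type replicate 2 highest and heterozygous replicate 2 next, an order found in 3.64% of tested genes. Wild-type replicate 2 held the highest value for 9 of the 21 tested carriers, against 14.9% of all tested genes. Wild-type replicate 3 held it for 8, against 23.9%, heterozygous replicate 3 for 2, against 20.9%, wild-type replicate 1 for 1, against 16.1%, heterozygous replicate 1 for 1, against 13.9%, and heterozygous replicate 2 for 0, against 10.3%. The highest value thus lay in a wild-type array for 18 of the 21. The lowest value lay in heterozygous replicate 2 for 6, against 16.9% of all tested genes, heterozygous replicate 1 for 5, against 13.5%, wild-type replicate 1 for 4, against 19.6%, heterozygous replicate 3 for 3, against 14.6%, wild-type replicate 3 for 2, against 15.5%, and wild-type replicate 2 for 1, against 20.0%. The 9 carriers highest in wild-type replicate 2 were Slc6a6, Slc6a8, Slc3a1, Slc3a2, Slc7a9, Slc7a7, Slc1a1, Slc6a4 and Slc7a8. Slc6a14 ran the other way at its brighter probe set, lowest in wild-type replicate 2 and highest in wild-type replicate 3, but not at its second probe set. The small intestinal marker score, the mean of centred log2 levels over 12 tested markers, was 0.12, 1.13 and -1.0 in wild-type and -0.56, 0.67 and -0.36 in heterozygous colon, with overlap between the genotypes (exact two-sided permutation p = 0.8, where 0.1 is the smallest that 3 against 3 arrays can give). Its part in the carriers' variation was not tested.

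**Figure D2:**
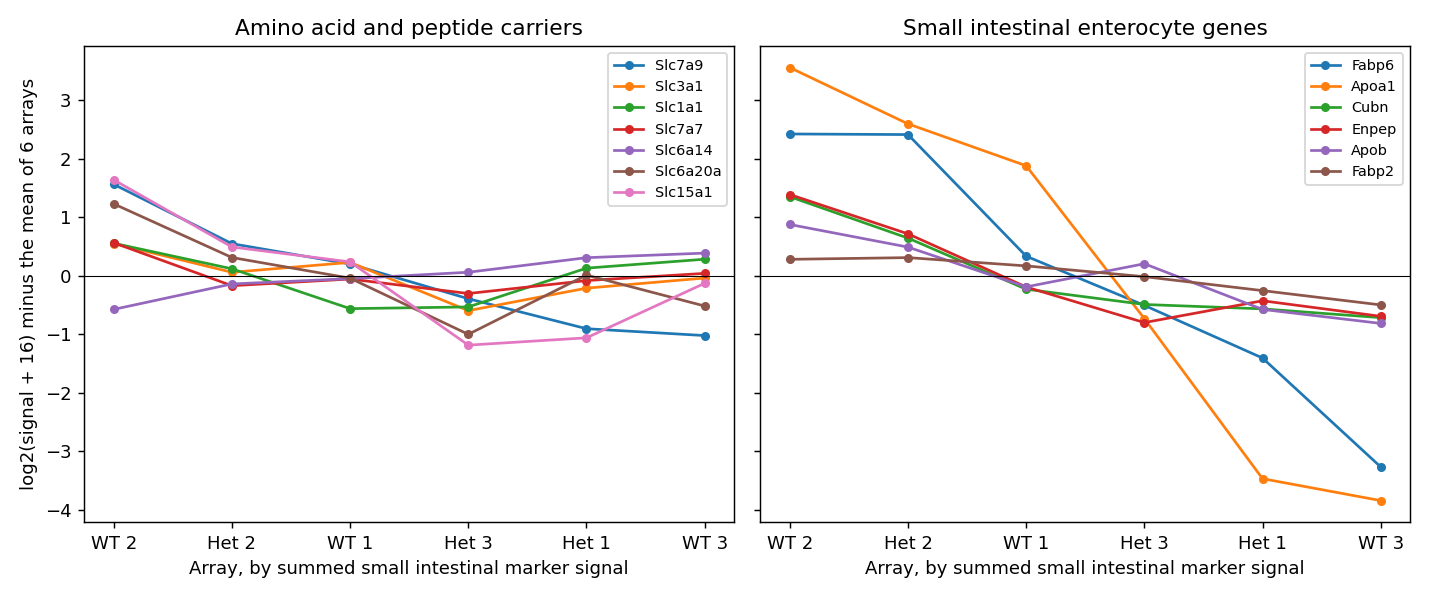
Level in each array as log2(signal + 16) minus the gene's mean over 6 arrays, for 7 amino acid and peptide carriers (left) and 6 small intestinal enterocyte genes (right), with arrays ordered along the x axis by summed small intestinal marker signal; lines join the values of 1 gene. Slc7a9 declines from left to right as Fabp6 and Apoa1 do over a wider range, while Slc6a14 is lowest in wild-type replicate 2. The genes drawn were picked from longer lists, and the 6 markers are part of the sum that orders the arrays. Among those not drawn, Lct was lowest in wild-type replicate 2, and Slc15a2 and Slc15a4 were highest in heterozygous replicate 2.

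Variation between arrays was uneven across the carriers. The highest array was at least 2-fold over the lowest, on signal + 16, for 4 of 21 tested carriers, against 7.73% of all tested genes. The 4 were Slc7a9 at 6.01-fold, Slc6a4 at 2.28-fold, Slc3a1 at 2.22-fold and Slc1a1 at 2.17-fold. All 4 had wild-type replicate 2 highest, and without that array the count was 1. Slc6a14 followed at 1.95-fold, Slc7a7 at 1.82-fold, Slc6a8 at 1.81-fold, Slc6a17 at 1.75-fold, Slc7a6 at 1.66-fold and Slc38a2 at 1.65-fold. At the other end, Slc3a2 varied by 1.17-fold and Slc6a6 by 1.26-fold. The median was 1.60-fold over the tested carriers and 1.39-fold over all tested genes.

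Among the basolateral chains, Slc3a2, the heavy chain shared by several light chains, was the steadiest carrier. It read 795, 929 and 800 in wild-type and 829, 795 and 888 in heterozygous colon, which overlapped throughout (841 ± 75.9 and 837 ± 47.2, SD, n = 3 each; log2 fold change -0.00, SE 0.12, limma adjusted p = 0.999). Its sign turned with the setting, to 0.07 when wild-type replicate 2 was left out, 0.03 and 0.00 when heterozygous replicate 2 or 1 was, and 0.01 with the arrays centred on their medians. Slc7a7, the light chain that exports cationic amino acids, read 364, 568 and 390 in wild-type and 357, 335 and 304 in heterozygous colon. The groups did not overlap, by the narrow gap between wild-type replicate 1 and heterozygous replicate 1, and the highest value was that of wild-type replicate 2 (441 ± 111 and 332 ± 26.7, SD, n = 3 each; log2 fold change -0.37, SE 0.18, limma adjusted p = 0.892). Without wild-type replicate 2 the log2 fold change was -0.18.

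Slc7a8, a basolateral light chain for neutral amino acids, lay just over the filter. It read 111, 125 and 104 in wild-type and 94.7, 96.5 and 102 in heterozygous colon, without overlap (log2 fold change -0.18, SE 0.17, limma adjusted p = 0.936; -0.12 without wild-type replicate 2). Slc7a6, the more widely expressed relative of Slc7a7, had means of 228 ± 66.5 and 220 ± 10.9 (SD, n = 3 each), with a log2 fold change of -0.02 that became 0.19 when wild-type replicate 3 was left out, 0.02 when heterozygous replicate 1 was, and 0.04 with array weights. Slc7a5, the leucine-importing light chain of growing cells, ran from 51.6 to 114, on both sides of the filter, and was not tested. The heavy chain Slc3a2 was therefore tested together with 3 of the 4 light chains listed with it.

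The exchangers and carriers that supply dividing cells ranged from bright to dim. Slc1a5, the glutamine exchanger, read 916, 727 and 950 in wild-type and 756, 709 and 719 in heterozygous colon. Wild-type replicate 2 lay among the heterozygous arrays, and the other wild-type arrays lay above them (864 ± 120 and 728 ± 24.6, SD, n = 3 each; log2 fold change -0.23, SE 0.13, limma adjusted p = 0.911; -0.35 without wild-type replicate 2). Slc1a4, its relative for alanine, serine and cysteine, had 3 tested probe sets, with log2 fold changes of -0.28, -0.16 and -0.01, all with overlapping groups. Slc7a4, related by sequence to the cationic carriers, read 411, 313 and 481 in wild-type and 410, 295 and 306 in heterozygous colon, which overlapped (log2 fold change -0.24, SE 0.19). Its other tested probe set also overlapped (log2 fold change -0.25). Its dim probe set under the filter read 52.2, 51.7 and 67 in wild-type and 28.3, 29.7 and 20.6 in heterozygous colon, without overlap. Of all dim genes, 9.32% were lower without overlap. The cationic carriers Slc7a1 and Slc7a2 had means of 23.3 and 21.7, and the cystine importer Slc7a11 had 18.2. These were under the filter and had no test. Their low signal on this array does not show that the transcripts were absent, since detection calls were not used here.

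Carriers known as targets of ATF4, the transcription factor of the amino acid response, were read as a list. Of 9 such carriers 5 were tested, 4 with a lower and 1 with a higher mean in heterozygous colon, and 0 passed the test in either direction (median log2 fold change -0.06). The member with the higher mean was Slc38a2, the sodium-coupled carrier of small neutral amino acids and the brightest of all 41 genes. It read 1677, 2491 and 2147 in wild-type and 2781, 2411 and 2642 in heterozygous colon. Its lowest arrays were wild-type replicates 1 and 3, but wild-type replicate 2 lay above heterozygous replicate 2 (2105 ± 408 and 2612 ± 187, SD, n = 3 each; log2 fold change 0.33, SE 0.15, limma adjusted p = 0.874; 0.17 without wild-type replicate 1).

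Other genes of the amino acid response gave no call. Of 23 on the array 21 were tested, 11 with a lower and 10 with a higher mean in heterozygous colon, and 0 passed the adjusted threshold in limma, with 1 in each direction at an unadjusted p under 0.05, against 2.56% of all tested probe sets lower and 3.12% higher. Those were Eif2ak4, the kinase that senses uncharged tRNA (log2 fold change -0.45), and Cebpg, a partner of ATF4 (log2 fold change 0.26). Asns, asparagine synthetase, had a log2 fold change of -0.21. Asns was lower and Cebpg higher in heterozygous colon without overlap, against 5.08% of all tested genes lower and 5.58% higher. Atf4 itself read 1693, 1657 and 1767 in wild-type and 1767, 1386 and 1470 in heterozygous colon, with overlap. For lysosomal amino acid sensing, 18 of 19 genes on the array were tested, with 12 lower and 6 higher means and 0 that passed even unadjusted (median log2 fold change -0.05). The smallest p there belonged to Mlst8, Sesn1 and Sesn3, with log2 fold changes of -0.26, 0.19 and -0.17. Of 9 tested genes in the list of other peptide and amino acid carriers and partners, 0 passed adjusted in limma and 1 had an unadjusted p under 0.05, the vesicular amine carrier Slc18a1 (log2 fold change -0.40), against 2.56% of all tested probe sets lower at that threshold. Next in that list were Slc15a1, given above, and the mitochondrial glutamate carrier Slc25a22 (log2 fold change -0.26).

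Among the remaining Slc38 members, Slc38a10 had 7 probe sets, 3 of them tested, that gave differing values. Its brightest read 1259, 1259 and 1357 in wild-type and 1276, 1241 and 965 in heterozygous colon (log2 fold change -0.16, and -0.04 without heterozygous replicate 3). The next read 1107, 867 and 1331 in wild-type and 1260, 1049 and 1617 in heterozygous colon (log2 fold change 0.24). Heterozygous replicate 3 was thus the lowest array at the first probe set and the highest at the second. The dimmest tested probe set read 408, 436 and 508 in wild-type and 383, 388 and 361 in heterozygous colon, without overlap (log2 fold change -0.24). A dim probe set under the filter, of the kind that can also bind other transcripts, read 24.8, 29.7 and 4.40 in wild-type and 63.3, 114 and 154 in heterozygous colon, the reverse direction without overlap. The direction of Slc38a10 therefore rests on the probe set chosen, and it was the 1 gene of 8 with more than 1 tested probe set whose probe sets differed in sign. Slc38a1, a sodium-coupled glutamine carrier, had means of 272 ± 35.8 and 254 ± 25.5 (SD, n = 3 each), and Slc43a3, a purine base carrier of the Slc43 family, had 231 ± 25.6 and 246 ± 51.6, both with overlap. The remaining glutamine and neutral amino acid carriers Slc38a3, Slc38a4 and Slc38a5 and the light chains Slc7a12 and Slc7a13 had means from 13.9 to 53.6 and were not tested.

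**Figure D3:**
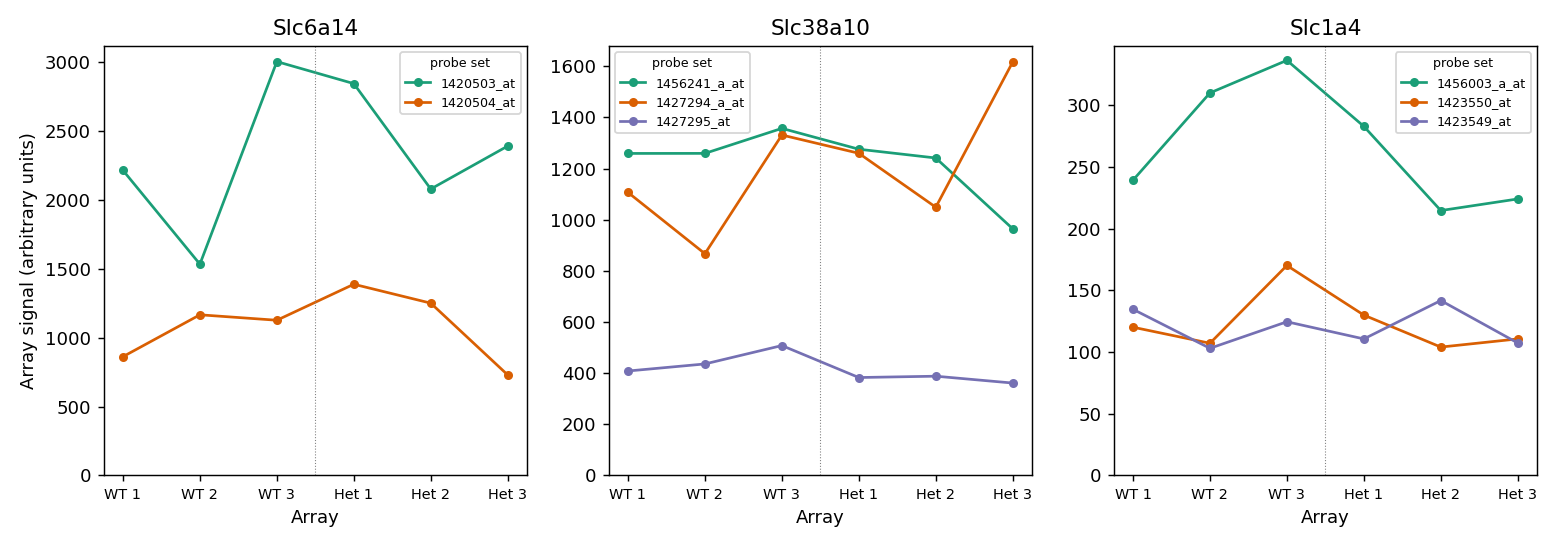
Array signal (arbitrary units) at the tested probe sets of Slc6a14, Slc38a10 and Slc1a4 in 3 wild-type and 3 heterozygous arrays; each line is 1 probe set, and the dotted line parts the genotypes. Heterozygous replicate 3 is the lowest array at the brightest Slc38a10 probe set and the highest at the next, and wild-type replicate 2 is the lowest at the brighter Slc6a14 probe set only.

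Of the 3 carriers of osmolytes and creatine, 2 were among the 10 brightest genes, and neither passed the test. Slc6a6, the taurine carrier, read 1326, 1412 and 1311 in wild-type and 1118, 1181 and 1124 in heterozygous colon. The groups did not overlap, and both were tight (1350 ± 54.7 and 1141 ± 35.0, SD, n = 3 each; log2 fold change -0.24, SE 0.10, limma unadjusted p = 0.0462, adjusted p = 0.873). Slc6a8, the creatine carrier, read 877, 1202 and 793 in wild-type and 659, 801 and 787 in heterozygous colon at its brighter probe set. Heterozygous replicate 2 there lay just above wild-type replicate 3 (log2 fold change -0.33, SE 0.17, limma adjusted p = 0.905; -0.16 without wild-type replicate 2). Its other probe set read 735, 887 and 980 in wild-type and 709, 691 and 662 in heterozygous colon, without overlap (log2 fold change -0.32, SE 0.13, limma unadjusted p = 0.0403, adjusted p = 0.856). Slc6a12, a carrier of betaine, had a mean of 3.85 and was not tested.

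The neuronal carriers were mostly dim. Of 13, the 9 under the filter had mean signals from 3.45 to 49.5: the noradrenaline carrier Slc6a2, the dopamine carrier Slc6a3, the glycine carrier Slc6a5, the glutamate carriers Slc1a2, Slc1a3 and Slc1a6, the GABA carrier Slc6a13, and Slc6a15 and Slc7a3. The 4 tested were Slc6a9, Slc6a17, Slc7a10 and Slc6a4, with means from 131 to 281. Slc6a9, a glycine carrier, read 306, 265 and 288 in wild-type and 246, 259 and 318 in heterozygous colon, and heterozygous replicate 3 was the highest of the 6. Slc6a17, a synaptic vesicle carrier, read 154, 125 and 212 in wild-type and 160, 114 and 149 in heterozygous colon. Slc7a10, a light chain for small neutral amino acids, read 188, 171 and 124 in wild-type and 121, 128 and 146 in heterozygous colon. The groups overlapped for each of these.

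Slc6a4, the serotonin carrier, which intestinal epithelium makes as well as neurons, read 111, 233 and 92.9 in wild-type and 96.2, 122 and 129 in heterozygous colon. Wild-type replicate 2 was far above the other 5 arrays, which lay between 92.9 and 129. The log2 fold change was -0.20 (SE 0.29) and became 0.16 without that array. Slc6a17 likewise went from -0.18 to 0.01 without wild-type replicate 3. Of 11 neuron markers on the array 9 were tested, and 0 passed the adjusted threshold in limma. Of the 9, 8 had a higher and 1 a lower mean in heterozygous colon (median log2 fold change 0.09). Their summed signal over 11 genes ran from 2296 to 3547 in wild-type and from 2584 to 3630 in heterozygous colon. That sum was lowest in wild-type replicate 2, where Slc6a4 was highest. Which cells made the Slc6a4 signal was not tested.

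Over all carriers, no difference between the genotypes passed the test. In limma, 0 of the 31 tested carrier probe sets passed the adjusted threshold of 0.05, against 0% of 13576 tested probe sets, and the smallest adjusted p was 0.817. An unadjusted p under 0.05 was found for 3 of the 31, or 9.68%, against 5.69% of all tested probe sets. These were Slc3a1, Slc6a6 and the dimmer tested probe set of Slc6a8, all lower in heterozygous colon, where 2.56% of all tested probe sets were lower and 3.12% higher at that threshold. The count was 0 without heterozygous replicate 1 or 3 and 1 without heterozygous replicate 2. The genotypes did not overlap for 3 of 21 tested genes, or 14.3%, against 10.7% of all tested genes. The 3, Slc6a6, Slc7a7 and Slc7a8, were all lower in heterozygous colon, against 5.08% of all tested genes lower and 5.58% higher. With the arrays quantile-normalised or centred on their medians, Slc6a6 and Slc7a7 were without overlap and Slc7a8 was not. Among the 20 dim carriers 3, Slc6a3, Slc1a3 and Slc7a13, were lower without overlap, against 9.32% of all 4153 dim genes.

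Most carriers nevertheless had lower means in heterozygous colon. The log2 fold change was below 0 for 18 of 21 tested carriers, or 85.7%, against 48.4% of all tested genes, and its median was -0.19 against 0.01. The 3 with values above 0 were Slc38a2, Slc6a14 and Slc43a3. With the dim genes included, 32 of 41 had a value below 0, or 78.0%, against 53.1% of all 12393 genes. The median was -0.19 for the 9 tested epithelial carriers, with 8 below 0, -0.19 for the 4 neuronal carriers, with 4 below 0, and -0.20 for the 8 general carriers, with 6 below 0. By array, centred log2 levels over the 21 genes had medians of 0.04, 0.15 and 0.08 in wild-type and -0.08, -0.10 and -0.04 in heterozygous colon. These counts and medians are descriptions without a test, since the genes are not independent of each other.

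**Figure D4:**
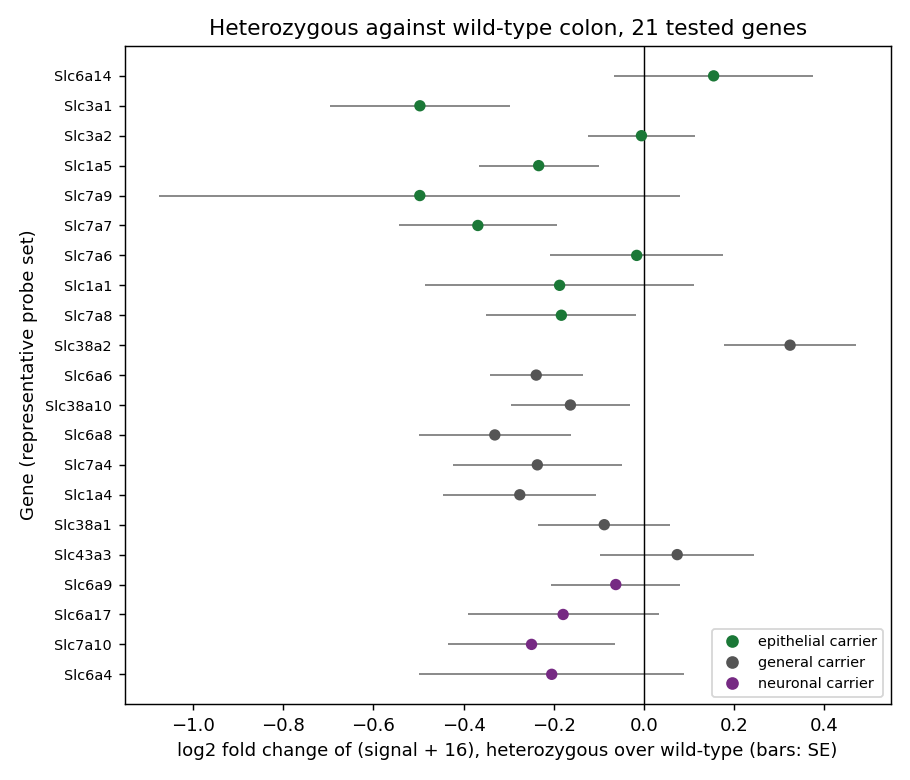
The log2 fold change of signal + 16, heterozygous over wild-type, for the 21 tested carriers at their brightest probe set, coloured by class; bars are the SE of the limma fit with 3 arrays per genotype. The points of 18 genes lie left of 0 and 0 passed the adjusted threshold, and Slc7a9 has the widest bar (SE 0.58).

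Markers of cell types in the colon wall were read beside this lower level. Summed goblet cell signal over 6 genes ran from 72389 to 73802 in wild-type and from 65543 to 70806 in heterozygous colon, without overlap. Of these 6 genes, all tested, 5 had a lower and 1 a higher mean in heterozygous colon (median log2 fold change -0.05). In limma 0 passed the adjusted threshold, and 1, lower, had an unadjusted p under 0.05. Among all tested genes, 5.08% were lower without overlap. Summed colonocyte signal over 11 genes ran from 61161 to 65239 and from 60090 to 71123, and summed smooth muscle signal over 7 genes from 37472 to 52329 and from 36723 to 46083. Summed macrophage signal over 9 genes ran from 5313 to 6410 and from 5787 to 8077, and summed T-cell signal over 7 genes from 420 to 494 and from 432 to 1002. Summed signals of the glia, B-cell, mast cell, enteroendocrine and adipocyte lists also overlapped between the genotypes. Exocrine pancreas genes, which are not of the colon wall, were 5 on the array and 0 above the filter. Their dim sum ran from 87.8 to 150.9 in wild-type and from 57.1 to 76.6 in heterozygous colon, without overlap. Taken singly, 9.32% of all 4153 dim genes were lower without overlap. The part of these cell types in the carriers' values was not tested.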

How the data were processed

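Total RNA from 6 proximal colons, amplified and biotin-labelled per the labels' protocols, was measured on 1 array each. The authors deposited linear intensities, with 1 value for each probe set. Per the submitters' processing notes they used GCOS; the sources used here state neither version nor settings. The number of arrays limits the precision. The members and lists were chosen with earlier results of these data known.

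Of 22690 rows, 64 controls were left out. Names came from the platform annotation (20380 probe sets with 1 symbol, 691 with several, 1555 with none), and a table of GRCm38.p6 genes altered 0 symbols. Intensities entered as log2(signal + 16), which understates folds of dim genes. After a filter at the 40th percentile of the mean log2 level, 13576 probe sets were fitted (limma 3.58.1, R 4.3.3) by lmFit and trended eBayes. Tests were two-sided, p-values were adjusted by Benjamini-Hochberg over all of these probe sets, and the threshold was 0.05. The steps were tested on simulated data. Python 3.11.15 and scipy 1.17.1 gave the exact permutation test. Genes named are Mthfd1, the 10 brightest carriers, the 10 most variable tested carriers, up to 5 in each direction with groups that do not overlap, the epithelial and neuronal carriers, and up to 3 genes of each pathway list by p; others were named after their values were seen. Promoter windows are RefSeq's, on GRCm38.p6. Alternatives covered normalization, pseudocount, filter, variance model, replicate block, probe sets per gene and each array left out; leaving out both replicates 2 was added after seeing the data.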

Additional observations from a re-analysis of the deposited data

How the results depend on the processing

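For the carriers, 0 probe sets passed the adjusted threshold under every alternative run, and the median log2 fold change of the tested carriers stayed below 0. That median was -0.23 with the filter at the 60th percentile and ran from -0.21 to -0.12 with 1 array left out. At the 60th percentile it was -0.30 for epithelial and -0.0619 for neuronal carriers, where 1 neuronal gene was left, and with 1 array left out these ran from -0.21 to -0.09 and from -0.25 to -0.14. Carrier probe sets with an unadjusted p under 0.05 numbered 8 without the filter (12.3%, against 6.17% of all probe sets; 5 of the 8 were dim, and the smallest p, 0.00121 in limma, was that of the dim Slc38a10 probe set with higher values in heterozygous colon, log2 fold change 1.84, adjusted p = 0.485), 1 with the replicate number as a block, and from 0 to 4 with 1 array left out. Genes without overlap between genotypes numbered 2 with quantile normalization, with median centring and at the 60th percentile, 6 without the filter (against 11.3% of all genes) and from 4 to 7 with 1 array left out (against 16.8% to 24.6% of all genes). Genes varying at least 2-fold numbered 2 with a pseudocount of 64, 12 without the filter, 2 at the 60th percentile, from 1 to 4 with 1 array left out, and 1 without both replicates 2. Over all probe sets the adjusted count was 2 with median centring, 8 with robust variance, 4 with array weights and from 0 to 39 with 1 array left out, where 39 came without heterozygous replicate 1. Mthfd1 passed with the mean of its probe sets (log2 fold change -0.89, limma adjusted p = 0.0391, range over its alternatives 0.0391 to 0.539). The difference in small intestinal score, -0.17, ran from -0.71 to 0.36 with 1 array left out. With 1 array left out, log2 fold changes that turned sign ran from -0.51 to 0.0452 for Slc1a1, -0.0474 to 0.0670 for Slc3a2, -0.0927 to 0.39 for Slc6a14, -0.34 to 0.0064 for Slc6a17, -0.44 to 0.16 for Slc6a4, -0.17 to 0.19 for Slc7a6 and -1.13 to 0.16 for Slc7a9; Slc3a2 was also 0.0092 with median centring and Slc7a6 0.0418 with array weights. The causes were not tested.

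Same-numbered arrays deviated from their group means with correlations of -0.124, 0.493 and 0.042. The value for replicates 2 was the highest of any wild-type and heterozygous pair, and the other arrays correlated best with a different number. The labels name only biological replicates, and correlations among so few arrays cannot decide whether the numbers pair the animals. The replicate block gave 0 adjusted calls over all probe sets. Counts of probe sets have no value under the mean of probe sets. Without detection calls, genes under the filter cannot be called absent.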
